A study of Mus musculus with 8 samples.

Results

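The 42 genes of mitosis and chromosome segregation examined here were taken by symbol from the 43346 genes of a ventricular RNA-seq count table, in which all 42 were found. The list holds cyclins and CDK1, mitotic kinases, and the proteins of the kinetochore, the spindle, cytokinesis and condensed chromosomes. Ventricles came from male C57BL/6 mice injected at 7 weeks of age. The LLC1 group (n = 4) received 1000000 LLC1 cells, a Lewis lung carcinoma line of C57BL origin, and the PBS group (n = 4) received the PBS vehicle alone. RNA was taken 14 days later. The paper reports echocardiography at the same time point and does not state whether the sequenced mice underwent it. The comparison addresses how the heart's transcriptome differs in a mouse that carries this tumor. It holds males only, 1 tumor line and 1 time point, and the RNA is from whole ventricle, so that fewer cells of a type and less RNA per cell cannot be told apart.

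Cells that divide switch these genes on together late in the cell cycle and switch them off after division. Cyclin-dependent kinase 1 (CDK1) with cyclin B starts mitosis, condensin and topoisomerase II shape the chromosomes, and kinetochores attach them to the spindle. A checkpoint holds the cell until every chromosome is attached, the anaphase-promoting complex then releases the sister chromatids, and a ring of actin and myosin at the spindle midzone divides the cell. Cardiomyocytes of adult mice rarely divide, and the dividing cells of a ventricle are for the most part other cell types, such as endothelial cells, fibroblasts and leukocytes.

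Library totals ran from 12480706 to 19747596 counts. Levels are given as raw counts or as counts per 1000000 (CPM) scaled by the trimmed mean of M-values, and a count of 3 corresponded to 0.151 to 0.257 CPM. On principal components of all genes the groups separated on the first (31.5% of variance), and PBS 1-1 stood apart from the other PBS mice on the second (25.2%). Summed levels of the cell type marker lists in LLC1 mice lay between 59.1% (lymphocyte, 0 of 6 tested) and 130% (erythroid) of the PBS mean. By edgeR at a false discovery rate under 0.05, 4.61% of all genes tested were lower and 4.12% higher, and 8.27% were lower without overlap of the groups. The sums were 113% of the PBS mean for 6 cardiomyocyte markers (1 of 6 significantly higher), 79.8% for endothelial markers (1 of 6 lower), 85.7% for fibroblast markers (3 of 6 lower), 81.6% for macrophage markers (1 of 6 lower), 85.1% for pericyte and smooth muscle markers (0 of 6 significant) and 130% for erythroid markers (0 of 5 tested significant). Cardiomyocyte markers summed to 87357 to 93852 CPM in LLC1 and 78434 to 80626 in PBS mice, and pericyte and smooth muscle markers to 793 to 855 and 902 to 1068, so that neither overlapped between groups. Endothelial markers summed to 809 to 938 CPM in LLC1 mice and 916 to 1212 in PBS mice. Fibroblast markers summed to 729 to 807 CPM in LLC1 and 782 to 982 in PBS mice, and macrophage markers to 160 to 199 CPM in LLC1 and 166 to 250 in PBS mice. Lymphocyte markers summed to 0.755 to 1.65 CPM in LLC1 and 1.26 to 2.88 in PBS mice, with Cd3e, Cd3d and Ms4a1 at 0 in at least 1 mouse. Erythroid markers summed to 1190.8 to 4315.4 CPM in LLC1 and 1306.5 to 2580.7 in PBS mice. The highest erythroid sum was that of LLC1 1-2, and the next among LLC1 mice was 2182.2 CPM. The part of these cell types in the levels of the mitosis genes was not tested.

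The promoters of the members were read first, because genes of this kind are known to share 2 short elements near their start. These are the cell cycle genes homology region (CHR; TTTGAA or TTCGAA), bound by the MuvB complexes that repress or activate mitotic genes, and the CCAAT box, bound by NF-Y. RefSeq promoters (GRCm38.p6) were found for 35 of the 42 members. There were none in the table for Ccna2, Pbk, Aurkb, Tpx2, Kif20a, Smc4 and Esco2. On either strand of the 250 bases before the RefSeq start, a CHR was found in 16 of 35 members (45.7%) and in 17.1% of the 32851 promoters in the table. A CCAAT box was found in 28 of 35 members (80%) and in 33.8% of all promoters, and both elements in 15 members (42.9%) and 6.02% of all promoters. With the 50 bases after the start included, 28 of 35 members held a CHR (80%), against 19.2% of all promoters of that length. These shares describe letters in a window and not binding. In each role group with such a member, the window printed is that of the member with the lowest p whose 250 bases held a CHR. Each gives the 150 bases before the start, written 5′ to 3′ along the gene, with CHR and CCAAT matches on either strand in capitals (TTCAAA and ATTGG are their reverse forms):
Cdk1 (GRCm38.p6 chr10:69352913-69353062, minus strand): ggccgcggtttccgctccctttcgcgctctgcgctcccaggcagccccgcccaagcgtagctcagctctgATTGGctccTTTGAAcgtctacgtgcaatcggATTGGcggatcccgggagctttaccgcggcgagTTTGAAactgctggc
Kntc1 (GRCm38.p6 chr5:123749576-123749725, plus strand): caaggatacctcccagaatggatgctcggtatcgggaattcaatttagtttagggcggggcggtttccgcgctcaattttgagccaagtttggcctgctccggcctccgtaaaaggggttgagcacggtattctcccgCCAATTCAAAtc
Ckap2l (GRCm38.p6 chr2:129297213-129297362, minus strand): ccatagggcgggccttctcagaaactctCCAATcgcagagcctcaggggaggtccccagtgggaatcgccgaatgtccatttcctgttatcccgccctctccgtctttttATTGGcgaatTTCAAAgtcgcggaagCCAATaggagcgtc
Top2a (GRCm38.p6 chr11:99024190-99024339, minus strand): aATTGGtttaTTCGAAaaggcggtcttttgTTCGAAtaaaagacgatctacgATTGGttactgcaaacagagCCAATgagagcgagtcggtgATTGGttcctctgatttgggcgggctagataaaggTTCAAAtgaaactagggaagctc
The windows differed in their make-up. Cdk1 held a pair of CHRs and a pair of CCAAT boxes, and the last 26 bases of its window lie within the gene as deposited. In Kntc1 the CHR and the CCAAT box shared 1 base. Top2a held both spellings of the CHR. Iqgap3 also met the rule, with a CHR and no CCAAT box, but 80 bases of its window lie within the gene as deposited, and it is not printed. Of the tested members that did not differ significantly between groups, Ncapd2, Smc2 and Ncapg held both elements and Cenpf held CCAAT boxes only.

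All 42 genes had a lower mean CPM in LLC1 than in PBS ventricles. The LLC1 mean was 4.37% (Ccnb1) to 91.6% (Ncapd2) of the PBS mean with a median of 25.9%. It was under 50% for 36 genes and under 25% for 20. The lowest values were those of Ccnb1, Kntc1, Bub1, Top2a, Hmmr and Iqgap3, of which all but Top2a and Iqgap3 were at 3 counts or fewer in every LLC1 library, and the highest to Ncapd2, Cenpf, Kif20a and the SMC subunits of condensin. In 33 of the 42 members every LLC1 mouse was lower than every PBS mouse, which held for 5.61% of the 27383 genes with a count. The groups overlapped for Cdca3, Plk1, Pbk, Melk, Cdca8, Cenpf, Smc2, Ncapd2 and Ncapg.

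Of the 42 genes, 31 passed the filter on low counts (10 counts or more, scaled to 0.627 CPM, in at least 4 mice). By edgeR's quasi-likelihood test at a false discovery rate (FDR) under 0.05 over all 16111 genes tested, 26 of these 31 were significantly lower in LLC1 mice, as were 4.61% of all genes tested. None was higher, against 4.12% of all genes tested. None was higher at an unadjusted p under 0.05, by DESeq2 or by limma-voom either. Non-overlapping groups were seen for 26 of these 31, against 8.27% of the genes tested. The filter itself bears on these counts, because 18 of the 31 passed it on the PBS mice with fewer than 4 LLC1 libraries above it. Cdk1, Ube2c, Birc5, Kntc1, Spc25, Hmmr, Ckap2l, Ect2 and Iqgap3 were above it in no LLC1 library and so were tested only through the group in which they were high. Of the 13 members above it in all 4 LLC1 libraries, 9 were significantly lower. When all 27383 genes with a count were fitted, 37 of the 42 members were significantly lower, against 2.7% of all genes, and the median log2 fold change of the 42 was −1.92 against −0.02 for all genes. Under a filter blind to the groups (80 counts summed over the 8 mice), 28 of 33 members were lower, against 4.68% of all genes. The count rested in part on PBS 1-3, without which 17 members were significantly lower, against 2.02% of all genes.

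**Figure D1:**
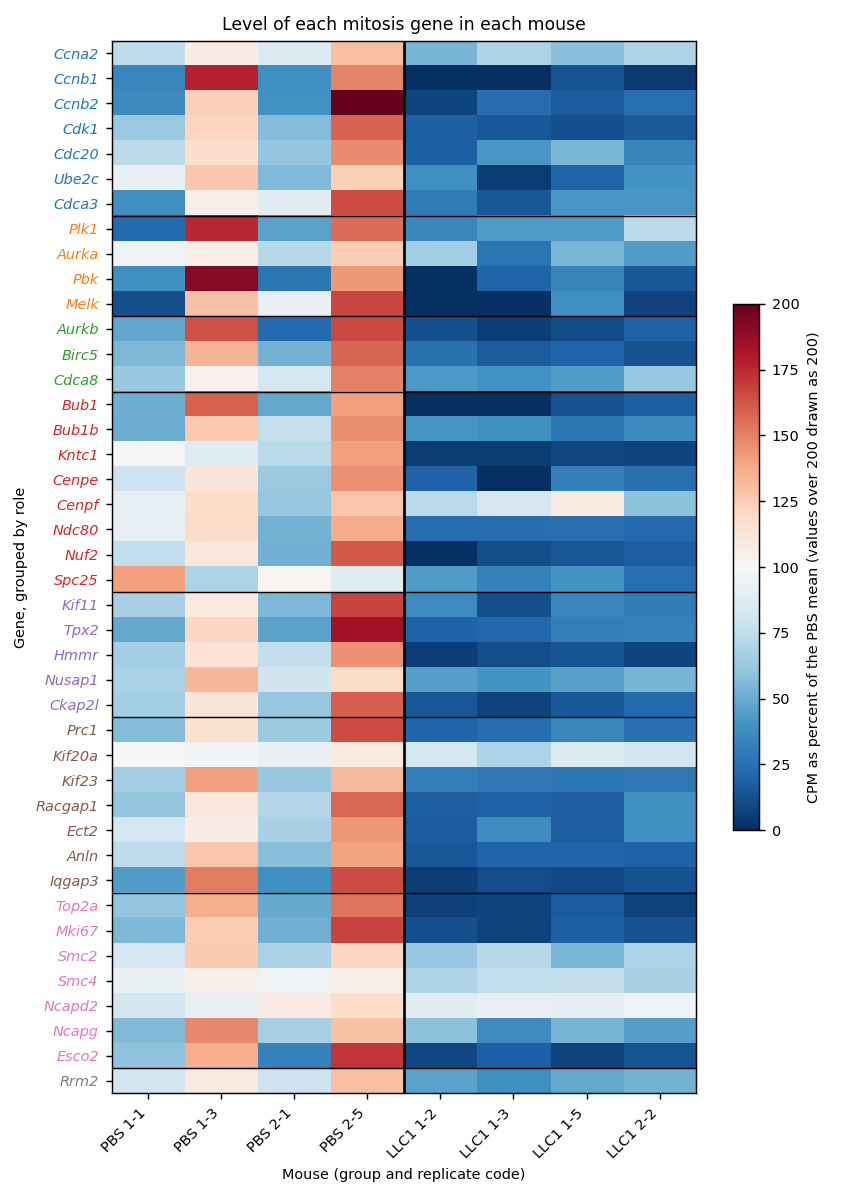
Level of the 42 mitosis genes in each mouse, as CPM in percent of the gene's PBS mean. Rows are genes with names coloured by role, columns are the 4 PBS and 4 LLC1 mice, and the colour scale runs from 0 to 200. LLC1 columns are blue for nearly every gene, and PBS 1-3 and PBS 2-5 are higher than PBS 1-1 and PBS 2-1 for most genes.

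The 4 LLC1 mice resembled each other, whereas the PBS mice were spread. The members summed to 91.8, 95.3, 108 and 95.5 CPM in LLC1 1-2, 1-3, 1-5 and 2-2, and to 142, 215, 139 and 253 CPM in PBS 1-1, 1-3, 2-1 and 2-5. The groups did not overlap, and the mean was 97.7 ± 7.19 CPM in LLC1 and 187 ± 56.3 CPM in PBS mice (SD, n = 4 each), or 52.3% of PBS. This sum is carried by a few abundant genes. The median gene stood at 20.03% to 29.2% of its PBS mean in the LLC1 mice, and at 65.4%, 120%, 62.2% and 146% in PBS 1-1, 1-3, 2-1 and 2-5. PBS 2-5 was the highest of all mice for 32 genes, PBS 1-3 for 9 and PBS 1-1 for 1. PBS 1-3 and PBS 2-5 were the highest of the PBS group for 38 of the 42 genes. No LLC1 mouse was the highest for any gene.

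Many LLC1 values were at the floor of the counting. Of the 168 LLC1 values, 38 were 3 counts or fewer, against 4 of 168 in PBS mice, and 5 and 4 of the genes had no count in LLC1 1-2 and LLC1 1-3. Every LLC1 library had 3 counts or fewer for Ccnb1, Bub1, Kntc1, Hmmr and Esco2. For these 5 genes the pooled ratio of counts, scaled for library size, is given in place of a fitted fold change, with an exact 95% interval that covers counting error only and not the spread between mice. Their percentages of PBS are ratios of means that rest on these few counts. With the 5 genes set at the upper end of their intervals, the median log2 fold change of the 42 was −1.90. A median is little moved by genes that stay below it, so this value does not show how far the floor bears on single genes.

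Of the 7 cyclin, CDK1 and protein turnover genes, 4 were tested and all 4 were significantly lower, against 4.61% of all genes tested, with LLC1 means of the 7 at 4.37% to 62.5% of PBS. Cdk1 and Ube2c were above the filter in no LLC1 library and so were tested only through the PBS mice. Cdk1 (ENSMUSG00000019942, mm10 chr10:69336635-69352938), the kinase that drives entry into mitosis, had 6, 5, 5 and 7 counts in LLC1 1-2, 1-3, 1-5 and 2-2 and 16, 38, 21 and 59 in PBS 1-1, 1-3, 2-1 and 2-5. Every PBS mouse was above every LLC1 mouse, at 0.338 ± 0.05 CPM in LLC1 and 2.19 ± 1.08 in PBS (log2 fold change −2.69, SE 0.40, FDR 0.00313 by edgeR). Ccnb1 (ENSMUSG00000041431, mm10 chr13:100778650-100786570), which encodes the cyclin B1 partner of CDK1, was counted 0, 0, 3 and 1 times in the LLC1 mice and 5, 31, 8 and 31 times in the PBS mice, in the same order. The pooled ratio was 0.0466 (0.0124 to 0.124). It did not pass the filter and was significantly lower in the fit of all genes (FDR 0.000505 by edgeR). A processed copy of the gene, Ccnb1-ps, matches it at 99.2% of 1287 bases. Gm12856 matches it at 98.1% of 1294 bases and Gm8416 at 97.3% of 1290 bases. Reads of Ccnb1 may not be fully separable from those of these genes. Ccnb2, a second B-type cyclin, had 2 to 8 counts in LLC1 and 7 to 56 in PBS mice, with an FDR of 0.00343 in the edgeR fit of all genes. Ccna2, cyclin A2, was the least changed of the group, with 59 to 101 counts in LLC1 and 64 to 162 in PBS mice (log2 fold change −0.69, SE 0.17, FDR 0.0322 by edgeR). On the CPM scale its groups did not overlap. It shares 12.5% of its exon bases with Exosc9 on the other strand, and the library kit does not mark strand.

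Cdc20 and Ube2c feed the anaphase-promoting complex, as its activator and its ubiquitin-conjugating enzyme. Cdc20 was at 0.819 ± 0.337 CPM in LLC1 and 2.21 ± 0.874 in PBS mice (log2 fold change −1.42, FDR 0.0281 by edgeR). Ube2c was at 0.356 ± 0.231 and 1.38 ± 0.46 CPM (log2 fold change −1.90, FDR 0.0207 by edgeR). Cdca3, which promotes turnover of the mitosis inhibitor Wee1, had 3 to 11 counts in LLC1 and 6 to 37 in PBS mice. Its groups overlapped, it did not pass the filter, and its FDR was 0.0139 in the edgeR fit of all genes.

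Of the mitotic kinases only Aurka passed the filter, and of the chromosomal passenger complex Birc5 and Cdca8 passed. Aurka, which matures the spindle poles, had 17, 7, 17 and 15 counts in the LLC1 and 19, 26, 21 and 36 in the PBS mice. The groups did not overlap but lay close together (log2 fold change −1.05, SE 0.28, FDR 0.039 by edgeR). Plk1, a kinase needed through most steps of mitosis, did not differ significantly. It had 4, 5, 6 and 11 counts in LLC1 and 2, 19, 6 and 20 in PBS mice, and PBS 1-1 was the lowest of the 8 mice (FDR 0.286 in the edgeR fit of all genes). Pbk had 0 to 4 counts in LLC1 and 3 to 18 in PBS mice, and Melk 0 to 5 and 1 to 20. Both kinases overlapped between groups, with FDR of 0.0297 and 0.0133 in that edgeR fit.

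In the passenger complex, which corrects faulty attachments and steers cytokinesis, Birc5 (survivin) had 6, 4, 6 and 4 counts in the LLC1 and 10, 30, 14 and 42 in the PBS mice. The groups were apart (log2 fold change −2.41, SE 0.45, FDR 0.0092 by edgeR), although no LLC1 library was above the filter. Its kinase Aurkb had 2, 1, 2 and 4 counts in LLC1 and 6, 25, 4 and 30 in PBS mice, with FDR 0.00336 in the edgeR fit of all genes. On the CPM scale even PBS 2-1, with 4 counts, was above the LLC1 mice. Cdca8 (borealin) changed less, at 1.10 ± 0.242 CPM in LLC1 and 2.35 ± 0.893 in PBS (log2 fold change −1.09, FDR 0.0341 by edgeR), and its groups overlapped.

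Genes of the kinetochore and its checkpoint held some of the largest and one of the smallest differences. Kntc1 (ENSMUSG00000029414, mm10 chr5:123749726-123821593), a subunit of the RZZ complex that brings the checkpoint and dynein to kinetochores, had 1, 1, 2 and 2 counts in the LLC1 and 14, 15, 15 and 29 in the PBS mice. The groups were far apart, and the FDR was 0.000677 by edgeR, although no LLC1 library was above the filter. The pooled ratio was 0.0719 (0.0255 to 0.164). The checkpoint kinase Bub1 had 0, 0, 2 and 3 counts in LLC1 and 5, 19, 7 and 20 in PBS mice, for a pooled ratio of 0.0857 (0.0267 to 0.213). Its relative Bub1b (BubR1) was lower by a log2 fold change of −1.51 (SE 0.31, FDR 0.0142 by edgeR), with 15 to 22 and 18 to 76 counts. The groups of both genes were apart on the CPM scale. Cenpe, a kinesin that moves chromosomes to the spindle equator, was at 0.389 ± 0.28 CPM in LLC1 and 2.06 ± 0.761 in PBS mice (log2 fold change −2.34, FDR 0.0126 by edgeR).

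The NDC80 complex, which grips the microtubule ends, has 3 subunits among the members. The fourth, Spc24, was on the comparison list and did not differ significantly (log2 fold change 0.14, FDR 0.64 by edgeR). Spc25 had 8, 6, 9 and 6 counts in LLC1 and 20, 12, 21 and 18 in PBS mice (log2 fold change −1.48, SE 0.31, FDR 0.0152 by edgeR). Spc25 was above the filter in no LLC1 library. It is the 1 gene that was highest in PBS 1-1. Ndc80 had 4, 4, 5 and 5 counts against 12, 19, 10 and 26, and Nuf2 had 0, 2, 3 and 4 against 10, 18, 10 and 31, with FDR of 0.00252 and 0.000675 in the edgeR fit of all genes. Cenpf, a large protein of the outer kinetochore, stood apart from the other kinetochore genes in both level and change. It had 293, 337, 529 and 310 counts in LLC1 and 284, 449, 282 and 576 in PBS mice. The groups overlapped widely (21.5 ± 5.63 and 26.6 ± 7.82 CPM), and the log2 fold change of −0.31 (SE 0.22) was not significant (FDR 0.409 by edgeR).

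All 5 spindle assembly genes were significantly lower, against 4.61% of all genes tested, at 9.84% to 46.0% of PBS, with Hmmr and Ckap2l above the filter in no LLC1 library. Ckap2l, a spindle protein of neural progenitors and other dividing cells, had 4, 2, 5 and 8 counts in LLC1 and 14, 29, 19 and 49 in PBS mice (log2 fold change −2.70, SE 0.41, FDR 0.00373 by edgeR). Hmmr, which helps to focus spindle poles, had 1, 2, 3 and 2 counts against 9, 19, 15 and 29, for a pooled ratio of 0.0971 (0.0404 to 0.202). Neither gene overlapped between groups. Kif11, the motor that pushes spindle poles apart, was at 0.764 ± 0.3 and 2.68 ± 1.36 CPM (log2 fold change −1.80, FDR 0.017 by edgeR). Tpx2, an activator of Aurora A, was at 0.726 ± 0.192 and 2.79 ± 1.83 CPM (log2 fold change −1.93, FDR 0.0218 by edgeR). Nusap1, which bundles microtubules around chromosomes, fell least, at 1.21 ± 0.146 and 2.64 ± 0.809 CPM (log2 fold change −1.12, FDR 0.0164 by edgeR).

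**Figure D2:**
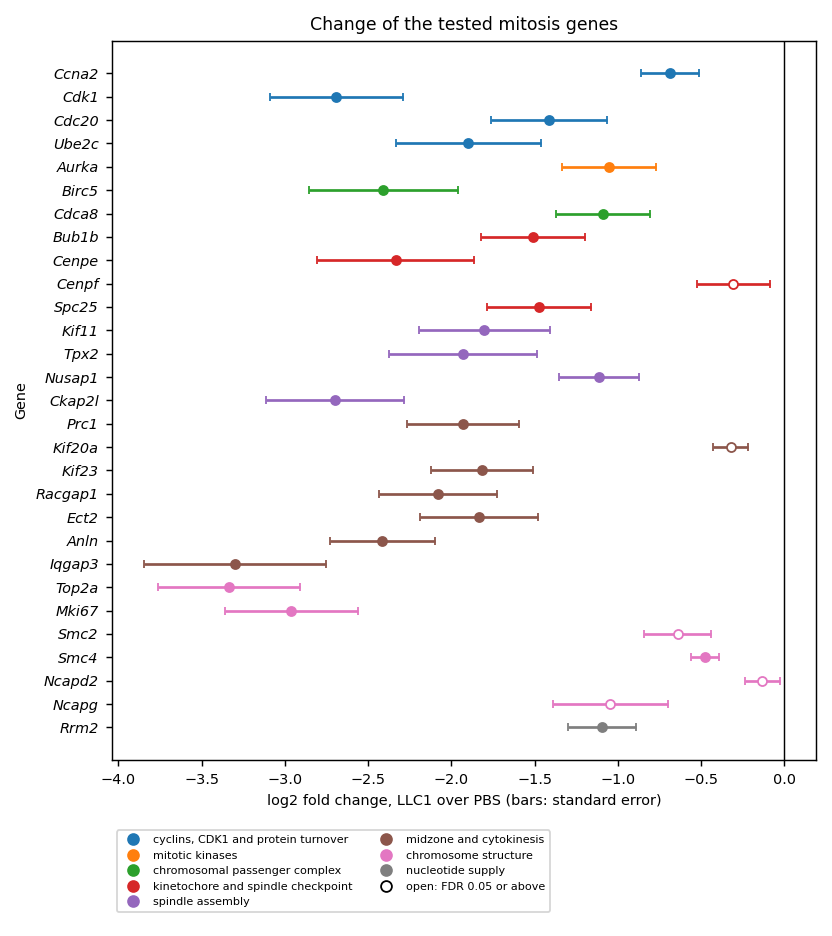
log2 fold change of LLC1 over PBS for the 29 tested mitosis genes with more than 3 counts in an LLC1 library (Kntc1 and Hmmr are left out), with bars of 1 standard error from edgeR and colours by role. The 24 filled points have an FDR under 0.05, the 5 open points (Cenpf, Kif20a, Smc2, Ncapd2 and Ncapg) do not, and every point lies below 0.

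Of the 7 genes of the spindle midzone and cytokinesis, 6 were significantly lower, against 4.61% of all genes tested, with Iqgap3 and Ect2 above the filter in no LLC1 library. Iqgap3, a scaffold of the actin network in dividing cells, had 3, 6, 6 and 9 counts in LLC1 and 18, 75, 23 and 97 in PBS mice. The groups were apart, and PBS 1-3 and PBS 2-5 were far above the other PBS mice (log2 fold change −3.30, SE 0.55, FDR 0.00529 by edgeR). Anln (anillin), which anchors the contractile ring, had 9, 12, 14 and 15 counts against 34, 71, 38 and 93 (log2 fold change −2.41, SE 0.31, FDR 0.00142 by edgeR). Racgap1, Kif23 and Ect2, which together switch on the contractile ring through RhoA, had log2 fold changes of −2.08 (FDR 0.00627), −1.82 (FDR 0.00584) and −1.83 (FDR 0.0104 by edgeR). The groups of all 3 were apart. Prc1, which crosslinks midzone microtubules, was at 1.5 ± 0.332 CPM in LLC1 and 5.72 ± 2.9 in PBS (log2 fold change −1.93, FDR 0.00678 by edgeR), and 11.1% of its exon bases lie opposite Rccd1. The kinesin Kif20a was the exception. It had 101 to 157 counts in LLC1 and 113 to 179 in PBS mice, at 7.70 ± 0.725 and 9.65 ± 0.684 CPM, and although the CPM values did not overlap, the log2 fold change of −0.32 (SE 0.11) was not significant (FDR 0.0817 by edgeR). Of its exon bases, 29.3% lie opposite Cdc23, a subunit of the anaphase-promoting complex that did not change significantly (log2 fold change 0.07, FDR 0.523 by edgeR).

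The genes of chromosome structure split. Top2a (ENSMUSG00000020914, mm10 chr11:98992943-99024189), the topoisomerase that untangles chromosomes, had 8, 10, 26 and 13 counts in LLC1 and 59, 163, 71 and 218 in PBS mice. Every LLC1 mouse was below every PBS mouse, and the means were 0.816 ± 0.409 and 8.38 ± 4.4 CPM (log2 fold change −3.33, SE 0.43, FDR 0.00139 by edgeR). Mki67 (ENSMUSG00000031004, mm10 chr7:135689788-135716379), the source of the Ki-67 proliferation antigen and a coat protein of mitotic chromosomes, had 27, 16, 48 and 37 counts against 92, 258, 128 and 408. The groups were again apart, at 1.83 ± 0.643 and 14.4 ± 8.1 CPM (log2 fold change −2.96, SE 0.40, FDR 0.00177 by edgeR). Esco2, which acetylates cohesin so that sister chromatids hold together, had 1, 2, 1 and 2 counts in LLC1 and 5, 14, 4 and 21 in PBS mice, for a pooled ratio of 0.119 (0.0415 to 0.281).

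The condensin subunits, which also work outside mitosis, were at 48.7% (Ncapg) to 91.6% (Ncapd2) of PBS. Smc4 (ENSMUSG00000034349, mm10 chr3:69004738-69034623) was significantly lower by a small amount, with 206, 226, 273 and 264 counts in LLC1 and 213, 296, 322 and 352 in PBS mice. After scaling the groups did not overlap, at 14.2 ± 0.851 and 19.7 ± 1.27 CPM (log2 fold change −0.48, SE 0.08, FDR 0.007 by edgeR). Its partner Smc2 was at 3.70 ± 0.459 and 5.77 ± 1.65 CPM with overlapping groups (log2 fold change −0.64, SE 0.20, FDR 0.0685 by edgeR). Ncapg was at 0.600 ± 0.117 and 1.23 ± 0.561 CPM (log2 fold change −1.05, SE 0.35, FDR 0.0808 by edgeR), also with overlap. Ncapd2 (ENSMUSG00000038252, mm10 chr6:125168007-125191701) had 370, 389, 462 and 535 counts in LLC1 and 266, 367, 514 and 557 in PBS mice. The means of 25.6 ± 1.02 and 27.9 ± 4.5 CPM did not differ significantly (log2 fold change −0.13, SE 0.10, FDR 0.462 by edgeR). Rrm2, the ribonucleotide reductase subunit that supplies deoxynucleotides to dividing cells, had 26, 22, 33 and 39 counts in LLC1 and 35, 58, 50 and 82 in PBS mice (log2 fold change −1.09, SE 0.20, FDR 0.00909 by edgeR).

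Each of the 33 members whose groups did not overlap has an exact two-sided permutation p of 0.0286, the smallest that the 70 arrangements of 4 against 4 mice allow. For the others the exact permutation p ran from 0.0571 (Pbk, Melk, Cdca8 and Ncapg) through 0.0857 (Cdca3 and Smc2) to 0.343 (Plk1, Cenpf and Ncapd2).

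Per kb of gene length, several of the genes that changed least were also the most abundant in PBS ventricles. Ncapd2 was at 4.46, Smc4 at 3.78, Kif20a at 2.54, Ccna2 at 2.09 and Cenpf at 1.72 CPM per kb, which put them above all the other members. Mki67 followed at 1.43 and Rrm2 at 1.34 CPM per kb. In LLC1 mice the same 5 genes were still the highest, at 4.08, 2.72, 2.03, 1.30 and 1.39 CPM per kb, whereas Mki67 was at 0.182. This order is a description of group means, and neighbours in it were not compared by a test. Kif20a shares 29.3% and Ccna2 12.5% of its exon bases with a gene on the other strand. The part of this in their levels was not tested. At the lower end Kntc1 and Ncapg were both at 0.174 CPM per kb in PBS mice, and in LLC1 mice Kntc1 was at 0.0123 and Ncapg at 0.0849.

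**Figure D3:**
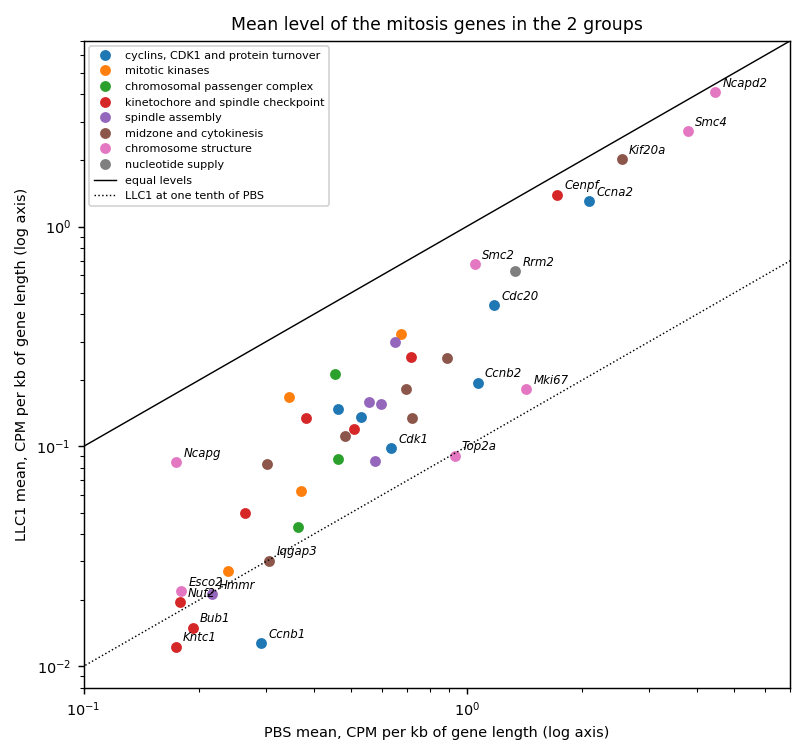
Mean CPM per kb of gene length of the 42 mitosis genes in PBS (x axis) and LLC1 mice (y axis), both on log axes, coloured by role. The solid line marks equal levels and the dotted line LLC1 at 0.1 of PBS. Every gene lies below the solid line, and Ncapd2, Smc4, Kif20a, Ccna2 and Cenpf are at the upper right.

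A further 120 genes of the same processes were listed for comparison. Of these 88 were tested, 14 were significantly lower and 2 higher by edgeR, beside 4.61% and 4.12% of all genes tested, and the median log2 fold change of the 88 was −0.16 against −0.01 for all genes tested. With all genes fitted, 31 of the 120 were lower, against 2.7% of all genes, and 2 higher. The number lower was 7 without PBS 1-3, where 2.02% of all genes tested were lower, and 22 without PBS 1-1, where 6.38% were. The 5 with the lowest FDR among the lower genes were Arhgap11a, a RhoA regulator of cytokinesis (log2 fold change −1.38, FDR 0.00284), Kifc1, a minus-end spindle motor (−2.01, FDR 0.00617), Aspm, a spindle pole protein (−2.57, FDR 0.00849), Espl1, the separase that cuts cohesin (−1.36, FDR 0.0123), and Gas2l3, a cytoskeletal linker of dividing cells (−1.36, FDR 0.0129, all by edgeR). Each had LLC1 and PBS groups that did not overlap. The filter bears on this list too. Kifc1 did not exceed 0.602 CPM in any LLC1 mouse, under the cutoff of 0.627 CPM. It was thus tested only through the PBS mice, and it is among the spindle genes counted below.

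By role, and beside 4.61% of all genes tested and 2.7% of all genes fitted, 6 of 13 tested spindle, centrosome and motor genes were lower (17 of 24 with all genes fitted), and 4 of 5 passenger complex and cytokinesis genes (6 of 8). Of 22 further kinetochore and checkpoint genes tested, 1 was lower (4 of 36 with all genes fitted), Cenpc1, named after its value was seen (log2 fold change −0.49, FDR 0.0171 by edgeR). The roles were not compared by a test. None of 14 other condensin and cohesin genes was called in either direction by edgeR or limma-voom, with 4 lower and 0 higher at an unadjusted p under 0.05 and 1 lower by DESeq2. None of the 8 regulators of CDK that passed the filter was called by edgeR or limma-voom, with 2 lower at an unadjusted p under 0.05 and 1 by DESeq2, and in the edgeR fit of all genes 2 of 11 were lower. Of the 13 core subunits and partners of the anaphase-promoting complex none was lower, with 0 lower at an unadjusted p under 0.05, by DESeq2 and by limma-voom. A pair of its small subunits was higher, Anapc13 (log2 fold change 0.39, FDR 0.02) and Anapc11 (0.34, FDR 0.05 by edgeR, just inside the threshold). Neither was called when libraries were scaled by their totals alone, and the number of other mitosis genes called higher was 0 without LLC1 1-2, LLC1 1-5, PBS 1-3 or PBS 2-1 and 1 without LLC1 1-3 or LLC1 2-2. Of 13 tested genes that control transcription of mitotic genes, 3 were lower, and they are named after their values were seen: Foxm1 (log2 fold change −1.84, FDR 0.0132), Rbl1 (−0.77, FDR 0.029) and Lin9 (−0.52, FDR 0.0452, all by edgeR). With all genes fitted 2 of 14 were lower, and Lin9 was not (FDR 0.101 by edgeR).

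DNA replication, the stage before mitosis, was represented by 32 genes. Of the 29 tested, 4 were significantly lower and none higher by edgeR, beside 4.61% and 4.12% of all genes tested (0 higher at an unadjusted p under 0.05, by DESeq2 or by limma-voom), and their median log2 fold change was −0.18. The 4 were Uhrf1, which keeps DNA methylation through replication (log2 fold change −1.21, FDR 0.0299), the helicase subunits Mcm6 (−0.62, FDR 0.035) and Mcm3 (−0.66, FDR 0.0436), and the licensing factor Cdt1 (−0.90, FDR 0.0456, all by edgeR). These calls depended on single mice. They numbered 7 without PBS 1-1 (6.38% of all genes tested were lower there), 2 without PBS 2-1 (3.63%), 1 without LLC1 1-3 (2.18%) or LLC1 1-5 (2.44%), and 0 by edgeR without LLC1 1-2 (2.58%), LLC1 2-2 (2.95%), PBS 1-3 (2.02%) or PBS 2-5 (5.1%). Whether this list differed from the mitosis genes was not tested.

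**Figure D4:**
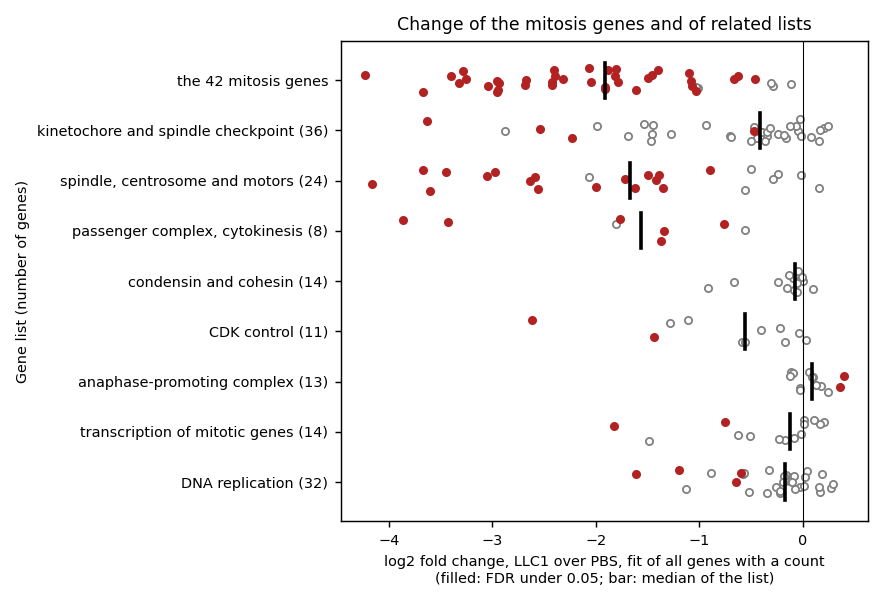
log2 fold change (LLC1 over PBS) in the edgeR fit of all genes with a count, for the 42 mitosis genes, 7 groups of other mitosis genes and the DNA replication genes. Each point is a gene, filled points have an FDR under 0.05, vertical bars are medians, and points are spread vertically for visibility only. Fitted values of genes with few LLC1 counts depend on the fit's prior count. The 42 genes centre on −1.92, condensin and cohesin genes on −0.08 and the anaphase-promoting complex on 0.09.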

How the data were processed

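RNA was isolated from heart ventricle of 8 mice, and TruSeq RNA v2 libraries were sequenced as paired 150-base reads on an Illumina HiSeq. The authors deposited raw read counts per gene, made against mm10. Their processing notes name CASAVA, STAR and featureCounts, and the versions, annotation release and strand setting are not given in the sources used here. Groups were taken from the stated treatment, and mice are named by group and replicate code. The labels do not say how mice were housed or processed together. Members, gene lists and tests were chosen with earlier results of these data known.

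Counts were fitted for the whole table in edgeR 4.0.16 (R 4.3.3) with filterByExpr, TMM factors, estimateDisp, glmQLFit and glmQLFTest, without covariates, and P values were adjusted by Benjamini and Hochberg over all genes tested (16111). A call is an FDR under 0.05. Standard errors are the absolute log2 fold change divided by the square root of F. Exact permutation tests used log2(CPM + 0.1). The fit was tested on simulated counts. DESeq2 1.42.0, limma-voom (limma 3.58.1), other scalings and filters, and the omission of each mouse were alternatives.

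Exon overlaps and similar transcripts (97% identity or more over at least 150 bases, BLAST 2.17.0) came from GENCODE M21, and promoters from RefSeq GRCm38.p6. Named among the other genes are up to 5 per direction and list with the lowest FDR, unless said otherwise. A gene that shares bases with another on the opposite strand cannot be told apart from it there.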

Additional observations from a re-analysis of the deposited data

Results flagged for a closer look

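In groups of 4 mice, the highest or lowest value of each member was compared with the others by the ratio of its gap to the group's range, at Dixon's 95% critical value. Of 86 such tests on the 42 genes and their sum, 2 exceeded it, and chance flags about 1 group in 20. Racgap1 was at 1.31 CPM in LLC1 2-2 and at 0.595 to 0.658 CPM in the other LLC1 mice (ratio 0.912). Top2a was at 1.42 CPM in LLC1 1-5 and at 0.529 to 0.658 CPM in the other LLC1 mice (ratio 0.855). Both values were below every PBS value of the gene.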

How the results depend on the processing

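No paired analysis was possible because the groups share only the replicate code 1-3, which different animals carry. None of the 31 tested members changed direction under any alternative, and the other 11 were not followed across the alternatives. Of 276 member values from alternatives with all mice, 271 kept their side of the threshold, 4 gained and 1 lost significance (Tpx2), and DESeq2 gave no adjusted p for Kntc1 and Hmmr. The number of members significantly lower was 25 to 28 in these fits and 37 with all genes fitted. Leaving out 1 mouse gave 17 (without PBS 1-3) to 31 (without PBS 1-1), from 26. Of 248 member values from these fits, 212 kept their side of the threshold, 33 lost and 3 gained significance. Without PBS 1-3, Ccna2, Cdc20, Ube2c, Aurka, Cdca8, Bub1b, Kif11, Tpx2 and Nusap1 had FDR of 0.0523 to 0.101 by edgeR and log2 fold changes of −1.85 to −0.66, close to those with all mice (−1.93 to −0.69), and 2.02% of all genes were lower. Of the 26 members, 16 were called in all 8 such fits, and Spc25 was the other gene lost in at least 1. Ccna2 was called in 2 of the 8, Cdc20, Aurka and Cdca8 in 3 each, and Tpx2 in 4. Ube2c, Kif11 and Nusap1 were called in 6 each, and Bub1b and Spc25 in 7. The cause was not tested.

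Other mitosis genes called lower numbered 31 with all genes fitted and 7 to 22 with 1 mouse left out, against 14. Those called higher numbered 4 with DESeq2, 1 with upper-quartile factors or limma-voom, 0 with library totals only and 0 to 4 with 1 mouse left out, against 2. DNA replication genes called lower numbered 2 with the leading digit of the mouse code in the model and 0 to 7 with 1 mouse left out, against 4. Members with a CHR numbered 28 in the whole 300-base window, against 16. The summed level, with alternatives chosen after seeing the data, was 48.1% to 59.2% of PBS with 1 mouse left out, and 51.3% without 5 members that share 10% or more of their exon bases with another gene. Scaling by library totals turned 743 lower and 663 higher calls over all genes into 793 and 225, and moved the median log2 fold change by −0.05. At these depths a member near 1 CPM rests on 12 to 20 counts per library.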
